A study of Mus musculus with 64 samples.

Results

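The data collected were counts of RNA tags from the 3' end of transcripts, sequenced in bulk from mouse natural killer (NK) cells in culture. These lymphocytes kill tumour cells and cells that carry a virus. The 10 genes described here lie outside the usual list of genes that answer prostaglandin E2 (PGE2) and cyclic AMP (cAMP): Bend4, Ier5l, Dgat1, Rnf125, Arid5b, Chn2, Asb2, Epb41l2, Pou2f2 and Gna15. They were chosen by name, out of 36273 symbols in the count table, for large effects of PGE2 or of tumour cell conditioned medium (CM) measured in these same libraries. Their levels with either treatment are therefore a description, given as values and standard errors with no test. All 10 passed the filter on low counts, which kept 10723 symbols.

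The series holds 64 libraries in 18 groups, made of 3 genotypes, 3 treatments and 2 states. EP2/EP4KO cells came from mice of genotype GzmbCre Ptger2-/- Ptger4fl/fl, which lack the PGE2 receptor EP2 and delete the receptor EP4 by a Cre driven by Gzmb. EP2KO cells came from Ptger2-/- Ptger4fl/fl mice, which carry the floxed Ptger4 allele without Cre. Wild-type (WT) cells came from C57BL/6J mice. Because Cre follows Gzmb, deletion of Ptger4 is limited to cells that have expressed this granzyme gene. Spleen NK cells of each genotype spent 5 days in culture with IL15:IL15Ra and IL-2 at a low dose. They then received PGE2 at 100 ng/ml, CM from PGE2-producing BRAFV600E cells, or neither, for 5 hours. Stimulated cells had 1 hour of that treatment, and anti-NK1.1, an antibody that triggers an activating receptor, over the last 4 hours. The groups held 3 libraries each in EP2/EP4KO and 4 each in EP2KO and WT, except that unstimulated WT cells with PGE2 had only the 2 libraries numbered 2 and 4. Whether replicates came from different animals or cultures is not in the labels. The p-values therefore rest on a spread between libraries that may be technical.

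PGE2 reaches NK cells through the receptors EP2 and EP4, which act through the G protein Gs to raise cAMP, activate protein kinase A and phosphorylate the transcription factor CREB. In NK cells this pathway is known for restraining killing and cytokine release. Among the 10 genes, Bend4 encodes a protein with a BEN domain, a DNA-binding fold, and Arid5b and Pou2f2 (Oct-2) also encode DNA-binding proteins. Dgat1 makes triglyceride, and Rnf125 and Asb2 encode parts of ubiquitin ligases. Chn2 (beta2-chimaerin) switches off the small G protein Rac, Epb41l2 (protein 4.1G) ties membrane proteins to the cytoskeleton, and Gna15 encodes a G protein alpha subunit of the Gq family. Ier5l is a relative of the immediate early gene Ier5, and its function is not well described.

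Start-site sequences were read from RefSeq's promoter table (GRCm38.p6), which holds windows of 300 bases, 250 before and 50 after an annotated start. The table matched 8 of the 10 genes, with 12 windows in all; Dgat1 and Rnf125 are named only. Each window was searched on both strands for the CREB-binding full cAMP response element TGACGTCA, its short core TGACG, the CCAAT box (CCAAT) and the GC box (GGGCGG). A full element contains 2 overlapping short cores, 1 on each strand. The windows of the genes with the largest positive responses to PGE2 in stimulated WT cells, Bend4 and Ier5l, are shown with CCAAT boxes in capitals. These boxes are written ATTGG because each match is on the other strand. For Chn2 and Asb2, which were lower with treatment, the only windows with a short core are shown with it in capitals, written CGTCA in Chn2 for a match on the other strand. The lines run 5' to 3' along each gene's own strand: Bend4 at chr5:67427750-67428049 (minus strand), Ier5l at chr2:30474150-30474449 (minus strand), Chn2 window 1 at chr6:54039682-54039981 (plus strand) and Asb2 window 2 at chr12:103338341-103338640 (minus strand).
Bend4: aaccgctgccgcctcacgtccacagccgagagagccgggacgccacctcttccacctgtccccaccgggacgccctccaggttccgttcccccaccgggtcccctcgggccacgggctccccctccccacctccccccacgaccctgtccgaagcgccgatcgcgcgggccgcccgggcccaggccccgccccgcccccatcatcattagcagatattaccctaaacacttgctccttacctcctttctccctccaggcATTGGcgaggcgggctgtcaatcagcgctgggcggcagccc
Ier5l: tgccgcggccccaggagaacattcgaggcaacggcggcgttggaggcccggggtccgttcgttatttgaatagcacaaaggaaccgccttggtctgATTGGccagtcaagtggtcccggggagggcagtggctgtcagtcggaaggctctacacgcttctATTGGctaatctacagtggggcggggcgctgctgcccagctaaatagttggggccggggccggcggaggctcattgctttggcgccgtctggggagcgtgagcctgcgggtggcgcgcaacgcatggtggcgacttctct
Chn2 window 1: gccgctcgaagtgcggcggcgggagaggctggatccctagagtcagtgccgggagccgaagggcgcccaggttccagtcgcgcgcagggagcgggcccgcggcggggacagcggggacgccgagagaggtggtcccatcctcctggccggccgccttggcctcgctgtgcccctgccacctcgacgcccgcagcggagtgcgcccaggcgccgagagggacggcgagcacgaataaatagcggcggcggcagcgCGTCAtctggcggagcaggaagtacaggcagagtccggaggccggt
Asb2 window 2: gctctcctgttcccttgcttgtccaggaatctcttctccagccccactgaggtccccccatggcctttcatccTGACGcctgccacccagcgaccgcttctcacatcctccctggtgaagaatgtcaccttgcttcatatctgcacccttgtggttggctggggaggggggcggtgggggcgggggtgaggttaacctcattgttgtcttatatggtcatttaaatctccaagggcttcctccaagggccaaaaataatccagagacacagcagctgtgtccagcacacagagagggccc

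No full element lay in any window of the 8 matched genes, against 2.03% of the 27025 genes of the table. The only windows of Pou2f2 (chr7:25132411-25132710, minus strand) and Epb41l2 (chr10:25408118-25408417, plus strand) lay well inside the gene spans given below. The sequence at the 5' ends of those spans was not searched. A short core was present in 2 of the 8 (25%), against 23.0% of all genes in the table. Among textbook cAMP and CREB target genes, 17 of the 22 matched (77.3%) held a short core and 2 (9.09%) held a full element. The CCAAT box was found in 3 of the 8 genes (37.5%), against 41.1% of all genes, and the GC box in 4 of the 8 (50%), against 38.2%. Of the 22 matched target genes, 18 (81.8%) held a GC box and 8 (36.4%) a CCAAT box. The short core was thus not the only motif that was more frequent in the target list than in all genes. With 8 genes, 1 gene more or less moves such a share far, and letters in a window show neither binding nor its absence. The upper quartile of GC content over all windows was 61.7%, and 5 of the 12 windows lay above it: Chn2 window 1 at 73.3%, Bend4 at 70.3%, Pou2f2 at 64%, Ier5l at 63.7% and Gna15 at 62.3%. Arid5b, at 43.3%, and Chn2 window 3, at 44.7%, lay below the lower quartile of 45.7%.

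In GENCODE M21 on GRCm38, Bend4 spans chr5:67392147-67428310, Ier5l chr2:30471537-30474219, Dgat1 chr15:76502015-76511953, Rnf125 chr18:20944625-20983862 and Arid5b chr10:68092520-68278740. Chn2 spans chr6:54039554-54301810, Asb2 chr12:103321142-103356001, Epb41l2 chr10:25359798-25523519, Pou2f2 chr7:25087344-25179726 and Gna15 chr10:81502306-81524225. All 10 are protein coding. Bend4, Chn2, Asb2, Epb41l2, Pou2f2 and Gna15 overlap annotated antisense genes, and whether the deposited counts used strand is not given in the sources used here, so reads of such partners cannot be told apart from theirs.

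Library totals ran from 753973 to 1693750 counts, with a median of 1256163. Levels are given in CPM, counts scaled to one common library size with factors from the trimmed mean of M values, so that 1 CPM is close to 1 count per library, and the lowest count of any of the 10 genes in a library was 2. The NK marker list summed to between 4230 and 8456 CPM in a library, whereas the T cell list reached 785 CPM, the macrophage and dendritic cell list 223 CPM, the neutrophil list 835 CPM, the B cell list 127 CPM and the erythroid list 39.7 CPM. In the T cell list Trbc1 averaged 287 CPM, Trbc2 203 CPM and Trac 32.2 CPM over all libraries, and no other marker averaged over 11.3 CPM. Of the 10 NK markers, edgeR called 2 lower with PGE2 (1.05% of all tested genes) and 4 with CM (3.68%) in unstimulated WT cells. After stimulation it called 4 lower with each treatment (9.63% with PGE2, 9.22% with CM), and 0 were called higher in these comparisons. With anti-NK1.1 alone it called 3 higher and 6 lower in each genotype. Over all genes the shares higher and lower were 16.4% and 13.8% in EP2/EP4KO, 18.4% and 15.0% in EP2KO, and 23.0% and 19.1% in WT. The mitochondrial share of counts in unstimulated WT libraries was 10.5 to 11.1% with PGE2 and 9.34 to 12.3% with CM, against 7.28 to 10.1% without treatment. The part of these shifts in the results on the 10 genes was not tested. The deleted receptors were checked by Ptger2, which ranged from 2.14 to 14.9 CPM in EP2/EP4KO, 2.41 to 13.9 CPM in EP2KO and 3.32 to 36.6 CPM in WT, and by Ptger4, which ranged from 31.3 to 125 CPM in EP2/EP4KO, 14.2 to 68.3 CPM in EP2KO and 9.58 to 81.3 CPM in WT. Tags from the 3' end can lie outside the deleted exons, so these levels check neither deletion. Xist ranged from 30.0 to 63.6 CPM in EP2/EP4KO libraries, 478 to 761 CPM in EP2KO and 500 to 940 CPM in WT, and the Y-linked gene Ddx3y from 51.2 to 180 CPM, 0 to 6.93 CPM and 0 to 5.84 CPM in the same order. Sex and the EP2/EP4KO genotype therefore cannot be told apart.

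**Figure D1:**
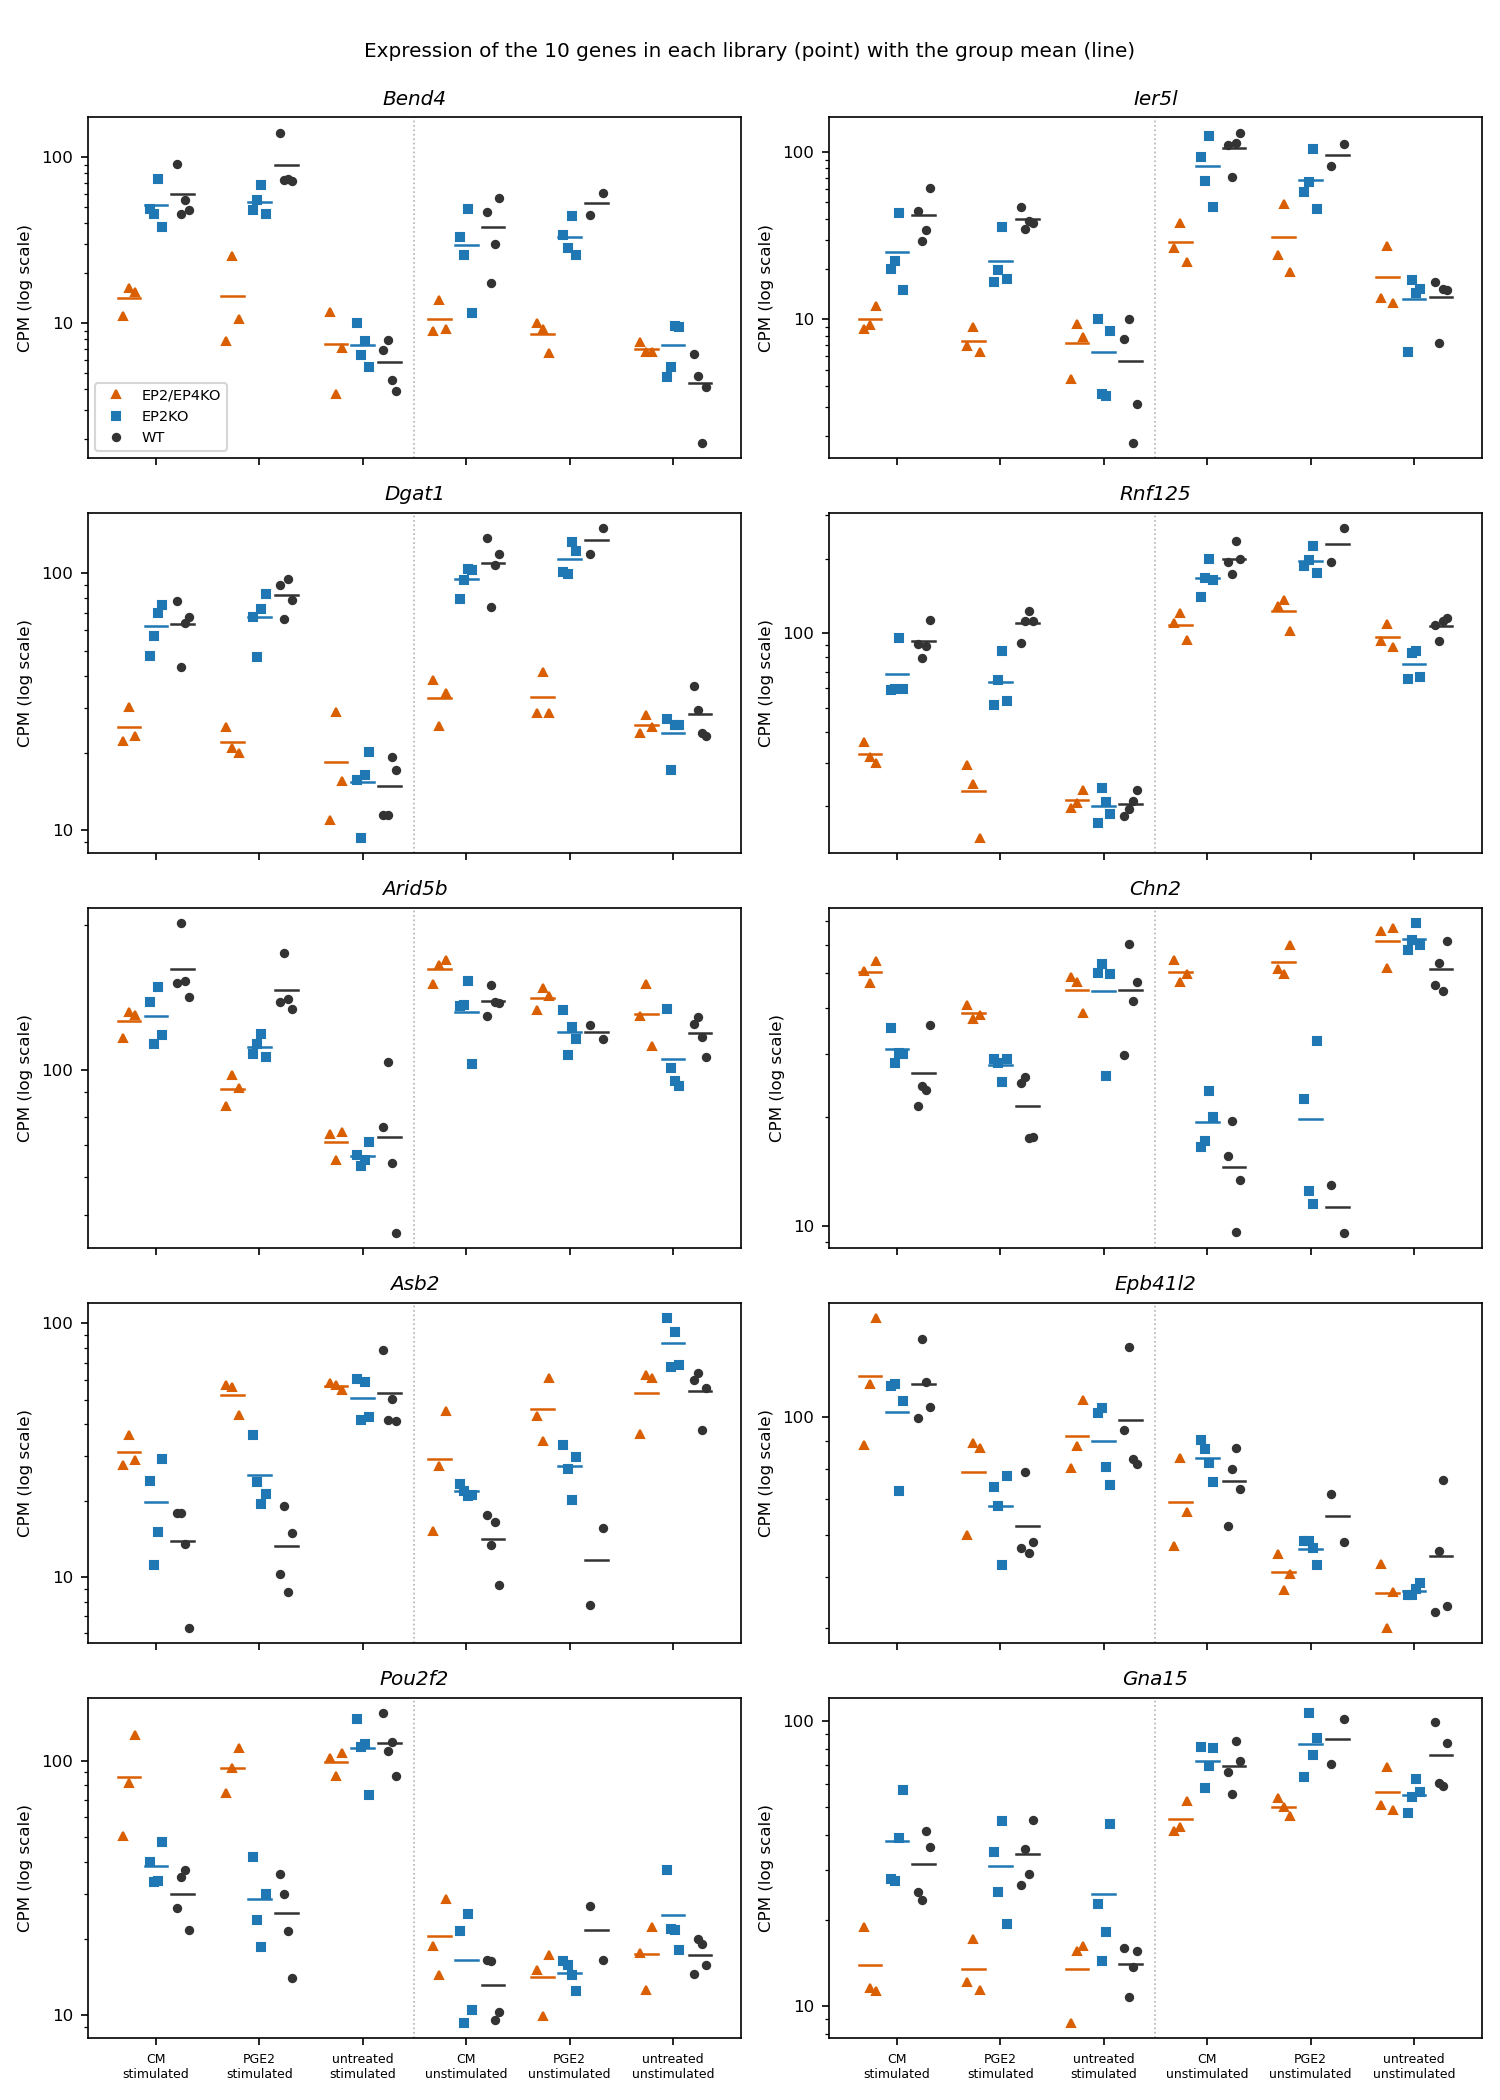
Level of each of the 10 genes in CPM (log scale) in every library (points) with the group mean (line), by treatment and state; triangles are EP2/EP4KO, squares EP2KO and circles WT. Bend4 ranges from 1.91 to 140 CPM and Arid5b only from 45.9 to 201 CPM; in both panels the scale is that of the gene alone.

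With PGE2 in stimulated WT cells, Bend4 was the gene of the 10 with the largest response. In stimulated WT cells it stood at 140, 73.1, 74.0 and 72.1 CPM with PGE2 and at 91.0, 45.5, 54.8 and 47.8 CPM with CM, against 6.85, 7.91, 4.57 and 3.89 CPM without treatment. In unstimulated WT cells it stood at 44.9 and 60.8 CPM with PGE2 and at 46.7, 17.4, 30.1 and 56.8 CPM with CM, against 6.54, 4.79, 1.91 and 4.15 CPM without treatment. Every treated WT library lay above every untreated one, and replicate 1 was the highest of the stimulated libraries with either treatment. The untreated WT libraries held between 2 and 11 Bend4 counts each, so the size of the ratio rests on few counts. The fitted log2 difference with PGE2 in stimulated cells was 1.00 ± 0.46 in EP2/EP4KO, 2.84 ± 0.35 in EP2KO and 3.91 ± 0.35 in WT (± SE throughout for log2 differences), a fold of 2.0, 7.18 and 15.0 in the same order. In EP2/EP4KO cells with PGE2, replicate 2 was high at 25.4 CPM, and the other libraries, at 7.81 and 10.7 CPM, lay within the untreated range of 3.75 to 11.7 CPM. With CM after stimulation the difference was 0.94 ± 0.47 in EP2/EP4KO, 2.76 ± 0.35 in EP2KO and 3.33 ± 0.36 in WT. In unstimulated EP2KO cells Bend4 averaged 33.0 CPM with PGE2 and 29.7 CPM with CM, against 7.35 CPM without treatment. Ier5l averaged 68.4 and 83.0 CPM there, against 13.3 CPM. In bulk RNA, fewer cells with a transcript and less of it per cell cannot be told apart, here or below.

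Ier5l was high with treatment in both states. In unstimulated WT cells it stood at 82.1 and 111 CPM with PGE2 and at 111, 70.7, 114 and 130 CPM with CM, against 16.7, 7.18, 15.2 and 15.0 CPM without treatment. After stimulation it stood in WT cells at 47.1, 34.9, 38.9 and 37.8 CPM with PGE2 and at 44.4, 29.2, 34.2 and 61.3 CPM with CM, against 7.62, 10.1, 1.83 and 3.12 CPM without treatment. Treated and untreated WT libraries did not overlap in either state, although the untreated stimulated libraries held only 2 to 14 Ier5l counts. The PGE2 difference in unstimulated cells was 0.79 ± 0.40 in EP2/EP4KO, 2.35 ± 0.35 in EP2KO and 2.83 ± 0.38 in WT. After stimulation it was 0.03 ± 0.58 in EP2/EP4KO, 1.77 ± 0.44 in EP2KO and 2.74 ± 0.42 in WT.

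Dgat1, which catalyses the last step of triglyceride synthesis, had treated libraries well apart from untreated ones in WT and EP2KO. Stimulated WT cells held 90.0, 66.5, 95.4 and 79.1 CPM of Dgat1 with PGE2 and 78.1, 43.1, 64.4 and 67.6 CPM with CM, against 11.4, 11.5, 19.2 and 17.1 CPM without treatment. In unstimulated WT cells it stood at 119 and 150 CPM with PGE2 and between 73.8 and 137 CPM with CM, against 23.3 to 36.3 CPM without treatment. The Dgat1 response hardly differed between EP2KO and WT. The PGE2 difference in unstimulated cells was 0.35 ± 0.26 in EP2/EP4KO, 2.24 ± 0.21 in EP2KO and 2.24 ± 0.23 in WT, and after stimulation it was 0.22 ± 0.29, 2.13 ± 0.23 and 2.49 ± 0.23 in the same order. Without untreated replicate 2, the stimulated EP2/EP4KO difference was 0.71 ± 0.33.

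Rnf125, an E3 ubiquitin ligase known in human cells for marking the RNA sensor RIG-I for degradation, was higher with treatment, more so after stimulation. In stimulated WT cells it stood at 91.7, 112, 124 and 113 CPM with PGE2 and at 91.0, 79.6, 89.0 and 114 CPM with CM, against 18.3, 19.4, 21 and 23.4 CPM without treatment. In unstimulated WT cells it stood at 194 and 267 CPM with PGE2 and between 173 and 235 CPM with CM, against 93.3 to 115 CPM without treatment. The PGE2 difference in WT was thus 2.42 ± 0.18 after stimulation and 1.1 ± 0.17 without it, which set stimulated treated WT cells close to the level of unstimulated untreated ones. In stimulated cells it was 0.10 ± 0.24 in EP2/EP4KO, 1.66 ± 0.19 in EP2KO and 2.42 ± 0.18 in WT. EP2KO libraries with PGE2, from 51.3 to 84.9 CPM, all lay below the WT range of 91.7 to 124 CPM. With CM, stimulated EP2/EP4KO libraries ran from 29.8 to 36.4 CPM, against 19.7 to 23.4 CPM without treatment, and these groups did not overlap.

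**Figure D2:**
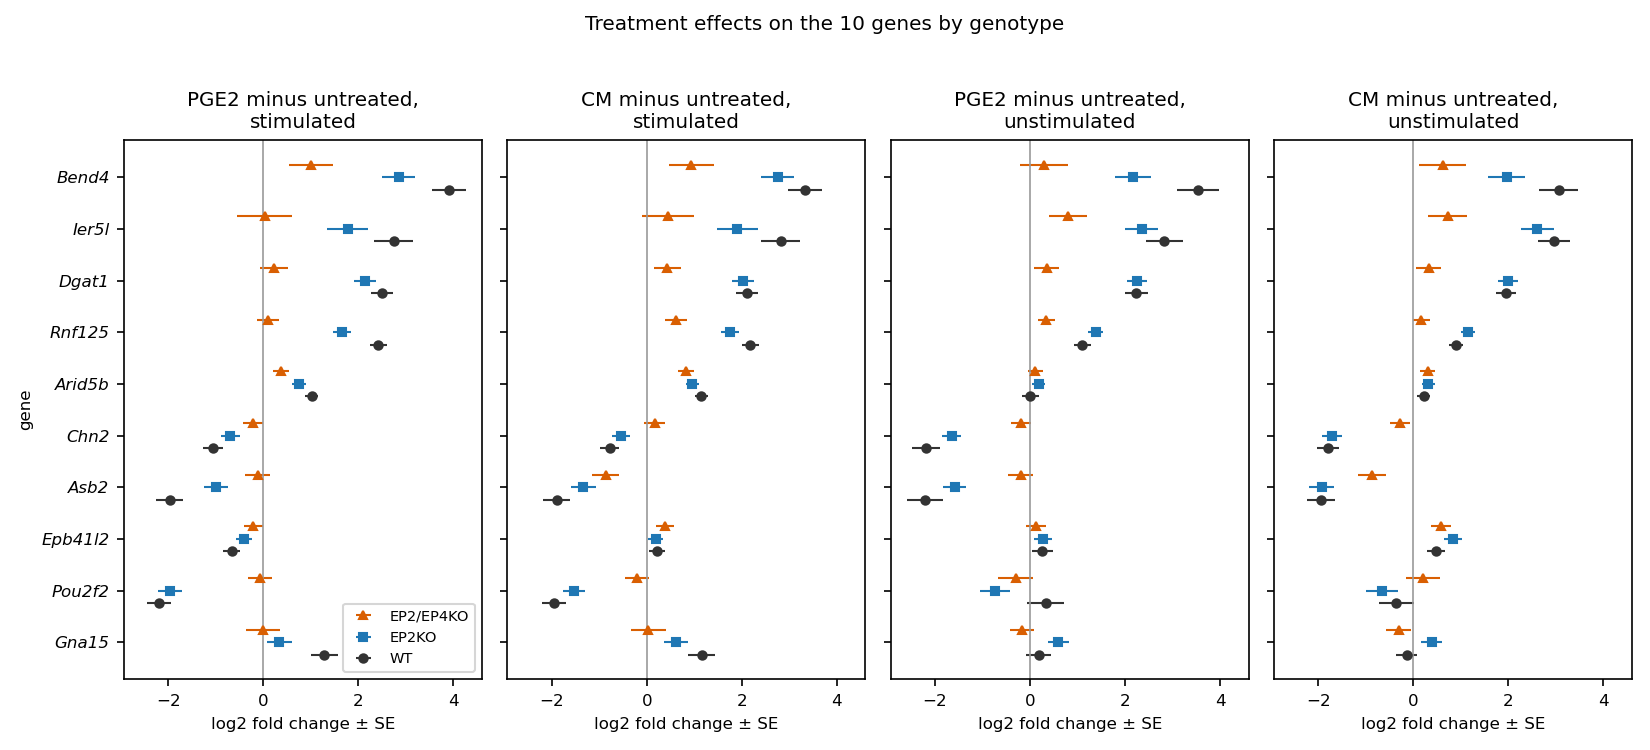
Log2 fold change ± SE of each of the 10 genes with PGE2 or CM minus untreated, in stimulated and unstimulated cells; triangles are EP2/EP4KO, squares EP2KO and circles WT. Bend4, with PGE2 after stimulation, is at 1.00 in EP2/EP4KO, 2.84 in EP2KO and 3.91 in WT; Pou2f2 is at -0.07, -1.96 and -2.20 in the same panel.

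Chn2 and Asb2 were lower with treatment in both states. Chn2 in unstimulated WT cells stood at 13.0 and 9.56 CPM with PGE2 and at 15.6, 19.5, 9.58 and 13.4 CPM with CM, against 46.5, 53.4, 44.8 and 61.5 CPM without treatment. After stimulation the gap was narrower, with Chn2 at 24.9, 25.8, 17.5 and 17.6 CPM with PGE2 and 21.5, 24.4, 23.8 and 36.0 CPM with CM, against 29.7, 60.4, 42.1 and 47.5 CPM without treatment. The CM libraries overlapped the untreated ones there, and the PGE2 libraries did not. In unstimulated cells the PGE2 difference was -0.19 ± 0.20 in EP2/EP4KO, -1.65 ± 0.21 in EP2KO and -2.18 ± 0.30 in WT. In stimulated cells it was -0.22 ± 0.22 in EP2/EP4KO, -0.69 ± 0.20 in EP2KO and -1.06 ± 0.21 in WT.

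Asb2, which brings filamins to a cullin-5 ubiquitin ligase, was lower by a similar amount in both states of WT cells. Its levels in stimulated WT cells were 17.9, 17.9, 13.5 and 6.31 CPM with CM and 10.3, 19.1, 8.76 and 14.9 CPM with PGE2, against 78.4, 41.7, 50.3 and 41.3 CPM without treatment. In unstimulated WT cells it stood at 17.5, 13.3, 16.4 and 9.29 CPM with CM and 7.78 and 15.6 CPM with PGE2, against 59.6, 63.8, 38.1 and 55.7 CPM without treatment. No treated WT library reached the untreated range. In stimulated cells the PGE2 difference was -0.12 ± 0.27 in EP2/EP4KO, -1.0 ± 0.26 in EP2KO and -1.97 ± 0.29 in WT. With CM the difference in stimulated cells was -0.87 ± 0.28 in EP2/EP4KO, -1.34 ± 0.26 in EP2KO and -1.90 ± 0.28 in WT. It was close to the PGE2 difference in WT and apart from it in EP2/EP4KO. Stimulated EP2KO libraries overlapped, at 11.2 to 29.1 CPM with CM and 19.4 to 36.1 CPM with PGE2. In stimulated EP2/EP4KO cells Asb2 stood at 27.7, 36.2 and 29.0 CPM with CM and at 57.2, 55.9 and 43.3 CPM with PGE2, against 58.4, 56.9 and 54.5 CPM without treatment. The CM libraries lay below all others of that genotype and state, and the CM minus PGE2 difference was -0.74 ± 0.29.

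The other 4 genes answered treatment differently in the 2 states. Pou2f2, best known as an octamer-binding factor of B cells, was low in unstimulated WT cells, at 26.8 and 16.5 CPM with PGE2 and 9.58 to 16.5 CPM with CM, against 14.5 to 19.9 CPM without treatment. After stimulation it stood in WT cells at 36.0, 29.9, 21.4 and 14.1 CPM with PGE2 and at 26.5, 34.9, 37.3 and 21.6 CPM with CM, against 154, 109, 118 and 87.2 CPM without treatment. Every stimulated treated library thus lay below every stimulated untreated one. Without stimulation the PGE2 difference in WT was 0.33, and -0.06 without PGE2 replicate 2. With PGE2 after stimulation the difference was -0.07 ± 0.25 in EP2/EP4KO, -1.96 ± 0.25 in EP2KO and -2.20 ± 0.26 in WT. Stimulated EP2/EP4KO libraries held 74.6, 94.0 and 112 CPM with PGE2 and 50.7, 81.7 and 126 CPM with CM, against 102, 86.9 and 108 CPM without treatment, and these groups overlapped.

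The list of 10 B cell markers summed in stimulated WT libraries to between 36.9 and 53.6 CPM with PGE2 and 48.0 and 64.4 CPM with CM, against 37.5 to 62.6 CPM without treatment. In unstimulated WT libraries it summed to between 33.0 and 48.4 CPM with PGE2 and 46.5 and 57.8 CPM with CM, against 71.5 to 95.5 CPM without treatment. Stimulated untreated libraries reached 66.9 to 77.9 CPM in EP2/EP4KO and 52.1 to 60.4 CPM in EP2KO. Ighm averaged 60.5 CPM over all libraries, and no other marker of the list averaged over 1.49 CPM. Cd79a had no count in 61 of the 64 libraries. The part of these markers in the Pou2f2 levels was not tested.

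Gna15, whose product couples many receptors to phospholipase C, overlapped between treated and untreated WT cells without stimulation, at 70.9 and 102 CPM with PGE2 and 55.3 to 84.9 CPM with CM, against 59.1 to 99.6 CPM without treatment. In stimulated WT cells it stood at 26.6, 35.7, 29.2 and 44.8 CPM with PGE2 and at 25.1, 23.6, 41.3 and 36.0 CPM with CM, against 16.0, 10.8, 13.7 and 15.6 CPM without treatment. Those stimulated groups did not overlap, and the treated libraries stayed below the unstimulated ones. The PGE2 difference after stimulation was -0.01 ± 0.36 in EP2/EP4KO, 0.34 ± 0.26 in EP2KO and 1.28 ± 0.29 in WT. In EP2KO the untreated stimulated libraries were at 22.9, 14.4, 18.2 and 43.5 CPM, so replicates 1 and 4 lay within the PGE2 range of 19.4 to 44.5 CPM and the groups overlapped.

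Arid5b, which recruits the histone demethylase Phf2, showed a small range. Stimulated WT cells held 151, 201, 153 and 141 CPM of Arid5b with CM and 138, 174, 140 and 134 CPM with PGE2, against 76.2, 104, 64 and 45.9 CPM without treatment. Replicate 2 was the highest of each of these groups. Without stimulation WT libraries ran from 129 to 150 CPM with CM and from 116 to 124 CPM with PGE2, against 106 to 128 CPM without treatment. The CM difference after stimulation was 0.83 ± 0.17 in EP2/EP4KO, 0.96 ± 0.14 in EP2KO and 1.15 ± 0.14 in WT, whereas the PGE2 difference was 0.36 ± 0.17, 0.75 ± 0.15 and 1.01 ± 0.14 in the same order. Arid5b was therefore the gene whose CM response in EP2/EP4KO cells was closest to that in WT among the 6 genes with a positive CM response above 1 log2 unit in stimulated WT cells. In stimulated EP2/EP4KO cells it stood at 116, 132 and 130 CPM with CM and at 84.1, 97.7 and 91.7 CPM with PGE2, against 73.7, 65.0 and 74.4 CPM without treatment, and none of these 3 groups overlapped.

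Epb41l2 was lower with PGE2 than with CM in stimulated WT cells. Its levels in stimulated WT cells were 99.6, 141, 117 and 105 CPM with CM and 56.6, 78.9, 55.5 and 58.0 CPM with PGE2, against 94.4, 136, 83.2 and 81.8 CPM without treatment. Every CM library lay above every PGE2 library, and the PGE2 libraries lay below the untreated ones. The CM minus PGE2 difference in stimulated cells was 0.59 ± 0.19 in EP2/EP4KO, 0.60 ± 0.17 in EP2KO and 0.89 ± 0.17 in WT. In unstimulated cells it was 0.45 ± 0.21 in EP2/EP4KO, 0.57 ± 0.18 in EP2KO and 0.21 ± 0.22 in WT. Unstimulated EP2KO libraries, with 90.5, 87.3, 81.9 and 75.3 CPM with CM and 58.4, 58.3, 56.6 and 52.5 CPM with PGE2, did not overlap.

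Ordered by mean level over the 18 groups, neighbours mostly differed by less than the larger of their standard deviations (SD). That held for 16 of 17 neighbouring pairs for Bend4, Dgat1 and Gna15, 15 of 17 for Ier5l, Asb2 and Pou2f2, 13 for Chn2, 12 for Rnf125, and all 17 for Arid5b and Epb41l2. Bend4 was highest in stimulated WT cells with PGE2, at 89.7 ± 33.3 CPM (SD, n = 4), and lowest in unstimulated untreated WT cells, at 4.35 ± 1.91 CPM (n = 4). Rnf125 was highest in unstimulated WT cells with PGE2, at 231 ± 51.2 CPM (n = 2), and lowest in stimulated untreated EP2KO cells, at 20.1 ± 2.84 CPM (n = 4). Pou2f2 was highest in stimulated untreated WT cells, at 117 ± 27.7 CPM (n = 4), and lowest in unstimulated WT cells with CM, at 13.2 ± 3.78 CPM (n = 4). Epb41l2 ran only from 119 ± 32.8 CPM (n = 3) in stimulated EP2/EP4KO cells with CM to 46.5 ± 6.37 CPM (n = 3) in unstimulated untreated ones.

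The anti-NK1.1 difference without any treatment was not itself used to choose the genes. It was tested with edgeR's quasi-likelihood test, adjusted by the Benjamini-Hochberg method over all 10723 genes and called at an adjusted p under 0.05. The untreated libraries in this test are also the baselines of the treatment differences for which the genes were chosen. The calls are therefore not independent of that choice, and the shares of all genes beside them are a background only. In WT cells 2 of the 10 genes rose (Pou2f2 and Epb41l2) and 5 fell (Rnf125, Gna15, Ier5l, Dgat1 and Arid5b), where 23.0% of all tested genes were called higher and 19.1% lower. In EP2KO cells 2 rose and 5 fell, where 18.4% and 15.0% of all genes were called. In EP2/EP4KO cells 2 rose and 4 fell, where 16.4% and 13.8% were called. The median log2 difference of the 10 genes was -0.45 in EP2/EP4KO, -0.65 in EP2KO and -0.45 in WT, beside 0.01 for all tested genes in each genotype.

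**Figure D3:**
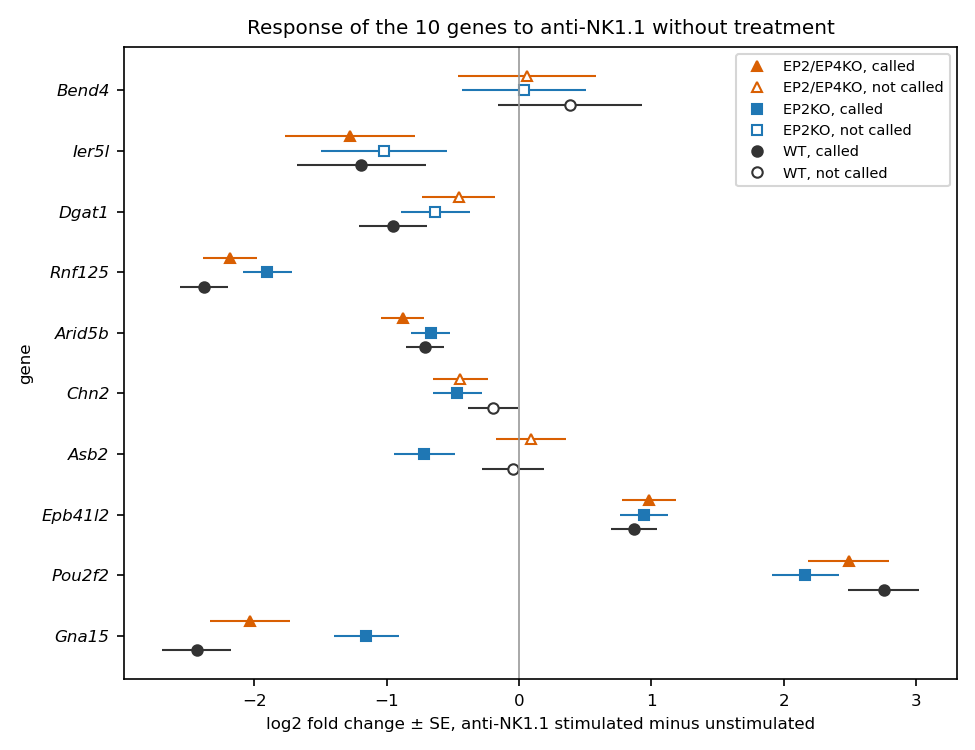
Log2 fold change ± SE of each of the 10 genes with anti-NK1.1 minus no stimulation in untreated cells; triangles are EP2/EP4KO, squares EP2KO and circles WT, and filled symbols are called at an adjusted p under 0.05. Pou2f2 and Epb41l2 are to the right of 0 and Rnf125, Gna15 and Arid5b to the left in all 3 genotypes, each called.

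Pou2f2 rose the most with anti-NK1.1, by 2.49 ± 0.30 in EP2/EP4KO (edgeR adjusted p = 1.47e-09), 2.16 ± 0.25 in EP2KO (3.55e-10) and 2.76 ± 0.27 in WT (6.76e-13). In untreated WT cells it stood at 154, 109, 118 and 87.2 CPM with anti-NK1.1 and at 14.5, 19.9, 19.1 and 15.8 CPM without it. Epb41l2 rose by 0.98 ± 0.20 in EP2/EP4KO, 0.94 ± 0.18 in EP2KO and 0.87 ± 0.18 in WT (adjusted p = 0.000107, 2.31e-05 and 5.215e-05). The groups overlapped for neither gene in any genotype.

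Rnf125 fell in every genotype, to 19.7, 20.6 and 23.4 CPM in stimulated EP2/EP4KO cells, against 92.9, 109 and 88.2 CPM in unstimulated ones. Its log2 difference was -2.18 ± 0.20 in EP2/EP4KO, -1.90 ± 0.19 in EP2KO and -2.38 ± 0.18 in WT, with edgeR adjusted p-values of 1.625e-13, 4.81e-13 and 2.565e-17. Gna15 fell with differences of -2.03 ± 0.30 in EP2/EP4KO, -1.15 ± 0.25 in EP2KO and -2.44 ± 0.26 in WT (adjusted p = 1.775e-07, 0.000139 and 1.29e-11). Arid5b fell with -0.88 ± 0.16, -0.67 ± 0.15 and -0.71 ± 0.14 in the same order (adjusted p = 1.79e-05, 0.000199 and 5.34e-05). For these 3 genes no stimulated library reached the unstimulated range of its genotype.

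Dgat1 and Ier5l were called in some genotypes only. Dgat1 stood at 11.4, 11.5, 19.2 and 17.1 CPM with anti-NK1.1 in WT cells, against 36.3, 29.5, 23.8 and 23.3 CPM without it, a difference of -0.95 ± 0.26 (edgeR adjusted p = 0.00199). It was not called in EP2/EP4KO (-0.46 ± 0.28, adjusted p = 0.219) or EP2KO (-0.63 ± 0.26, adjusted p = 0.0542). It was called in EP2/EP4KO without stimulated replicate 2 (-0.95, adjusted p = 0.0211), and in EP2KO without stimulated replicate 4 or unstimulated replicate 2 (adjusted p = 0.0266 and 0.0276). Ier5l was called in EP2/EP4KO (-1.28 ± 0.49, adjusted p = 0.0423) and WT (-1.19 ± 0.49, adjusted p = 0.0436) and not in EP2KO (-1.02 ± 0.48, adjusted p = 0.0932, or 0.0402 without unstimulated replicate 1). Its call in EP2/EP4KO was lost without any 1 of 3 libraries (unstimulated replicate 2, stimulated replicates 1 and 3; adjusted p = 0.300, 0.155 and 0.0793). Its call in WT was lost without any 1 of 5 (unstimulated replicates 1, 3 and 4, stimulated replicates 3 and 4; adjusted p between 0.0756 and 0.131).

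Asb2 and Chn2 were called in EP2KO cells, each lower. Asb2 stood at 60.1, 41.7, 58.9 and 42.7 CPM with anti-NK1.1 in EP2KO cells, against 105, 67.3, 92.3 and 68.7 CPM without it, a difference of -0.72 ± 0.23 (edgeR adjusted p = 0.0111). It differed by 0.09 ± 0.26 in EP2/EP4KO (adjusted p = 0.838) and -0.04 ± 0.24 in WT (adjusted p = 0.896). Chn2 differed by -0.47 ± 0.18 in EP2KO (adjusted p = 0.0428), where stimulated replicate 3 at 26.0 CPM was far below the other libraries, at 49.7 to 53.2 CPM. Without that library the Chn2 difference was -0.29 and its adjusted p 0.251, and the call was also lost without unstimulated replicate 2, 3 or 4 (adjusted p = 0.0643, 0.113 and 0.0549). The Asb2 call was lost without unstimulated replicate 1 (-0.60, adjusted p = 0.0548). In EP2/EP4KO, where same-numbered libraries deviated together, Chn2 differed by -0.44 ± 0.21 with an adjusted p of 0.0997, and by -0.44 with an adjusted p of 0.0461 with the replicate number as a block. Bend4 was not called in any genotype, with 95% intervals of -0.96 to 1.09 in EP2/EP4KO, -0.88 to 0.95 in EP2KO and -0.68 to 1.45 in WT.

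The difference of the anti-NK1.1 response between genotypes was tested itself. None of the 10 genes was called for EP2/EP4KO minus EP2KO or for EP2KO minus WT, and 0% of all tested genes were called by edgeR in either. At an unadjusted p under 0.05 there were 227 genes for EP2/EP4KO minus EP2KO and 460 for EP2KO minus WT, and DESeq2 called 0 in each. Of the 10 genes, 2 had an unadjusted p under 0.05 in each test, Gna15 and Asb2. For Gna15 the anti-NK1.1 difference of EP2KO minus that of WT was 1.28 ± 0.37 (edgeR unadjusted p = 0.000885, adjusted 0.960), and for Asb2 it was -0.67 ± 0.33 (unadjusted p = 0.0450, adjusted 0.960).

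Untreated levels did not separate the genotypes by the test. None of the 10 genes was called for EP2/EP4KO minus EP2KO in unstimulated (0.0560% of all genes called) or stimulated cells (0.0839%), or for EP2KO minus WT in unstimulated (0.0653%) or stimulated cells (0.0746%). At an edgeR unadjusted p under 0.05 there were 3, 1, 3 and 1 of the 10 in the same order. Of all tested genes there were 568, 528, 774 and 658. These untreated libraries are also the baselines of the differences for which the 10 genes were chosen. Rnf125 without stimulation stood at 65.2, 83.7, 85.0 and 66.8 CPM in EP2KO cells, against 108, 93.3, 112 and 115 CPM in WT cells. These libraries did not overlap, and the difference was -0.51 ± 0.16 (edgeR unadjusted p = 0.00177, adjusted 0.493). Asb2 did not overlap either, at 67.3 to 105 CPM in EP2KO and 38.1 to 63.8 CPM in WT, with a difference of 0.61 ± 0.23 (adjusted p = 0.637). Neutrophil marker sums ran from 71.9 to 835 CPM in EP2KO libraries and from 46.0 to 389 CPM in WT libraries, and their part in these differences was not tested. In that list Mpo averaged 82.8 CPM, S100a8 64.9 CPM, Elane 54.4 CPM and S100a9 26.7 CPM over all libraries. No other marker of it averaged over 1.37 CPM, and Ly6g had no count in 54 of the 64 libraries. For Bend4 the interval of EP2KO minus WT was -0.35 to 1.71 without stimulation, wide enough to hold a difference of over 1 log2 unit.

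Family members and direct partners of the 10 genes were set beside them: 104 genes listed by family, of which 80 passed the filter. These relatives were listed for their families and not for their values, although earlier results of these data were known when the lists were made. They were tested for PGE2 and CM. In unstimulated WT cells PGE2 raised 4 of the 80 and lowered 0 (background 1.91% higher, 1.05% lower), and CM raised 9 and lowered 1 (4.55% and 3.68%). In stimulated WT cells PGE2 raised 7 and lowered 7 (6.00% and 9.63%), and CM raised 8 and lowered 5 (6.20% and 9.22%). In EP2KO cells, without stimulation, 2 were called with PGE2 (3.15% of all genes called in either direction) and 3 with CM (4.37%), and after stimulation 6 with PGE2 (7.29%) and 8 with CM (10.4%). For PGE2 in unstimulated EP2KO cells, where same-numbered libraries deviated together, the replicate block gave 4 of the 80 and 646 genes in all, against 338 without it. In EP2/EP4KO cells 0 of the 80 were called in any of the 4 comparisons, where edgeR called 0% of all genes with PGE2 in either state and with CM unstimulated, and 0.0746% with CM stimulated. At an unadjusted p under 0.05 there were 0 of the 80 with PGE2 in either state, 3 with CM unstimulated and 10 with CM stimulated, and 184, 260, 485 and 723 of all genes (PGE2 unstimulated and stimulated, CM unstimulated and stimulated). DESeq2 called 0, 0, 0 and 25 genes in the same order. With the replicate block, which fits the pairing of the stimulated EP2/EP4KO libraries, 2 genes were called with PGE2 and 70 with CM, again 0 of the 80 in both. The median difference of the 80 lay between 0.03 and 0.16 in the 4 WT comparisons, beside -0.05 to 0.01 for all genes. The counts in unstimulated WT cells fell when any 1 of several libraries was left out. With PGE2 the count was 2 of the 80 without untreated replicate 1, 2 or 4. With CM it was 4 or 5 without CM replicate 2 or 3 or untreated replicate 1 or 4.

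Ier5 and Ier2, the immediate early relatives of Ier5l, moved against it. Ier5 fell with PGE2 in stimulated WT cells to a mean of 94.3 CPM, against 181 CPM without treatment (-0.93 ± 0.15, edgeR adjusted p = 2.89e-06), and with CM to 110 CPM (-0.72 ± 0.15, adjusted p = 0.000244). Ier2 fell to 122 CPM with PGE2, against 233 CPM without treatment (-0.93 ± 0.18, adjusted p = 6.75e-05). With anti-NK1.1 alone, both rose in WT cells where Ier5l fell, Ier5 by 0.83 ± 0.15 (adjusted p = 6.00e-06) and Ier2 by 1.13 ± 0.18 (adjusted p = 4.74e-07).

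Among relatives of the DNA-binding members, Arid5a, an RNA-binding paralog of Arid5b, rose in all 4 WT comparisons. It averaged 101 CPM with PGE2 and 98.5 CPM with CM in unstimulated WT cells, against 63.7 CPM without treatment, and 64.2 and 74.1 CPM after stimulation, against 34.9 CPM (differences of 0.67, 0.62, 0.88 and 1.09, SE 0.15 to 0.18, largest edgeR adjusted p = 0.0220). Arid2, Arid4a and Arid4b, subunits of chromatin complexes, rose with CM in unstimulated WT cells by 0.65 ± 0.19, 0.56 ± 0.16 and 0.61 ± 0.20. Pou2f1, the widely expressed paralog of Pou2f2, was not called, with differences of -0.06 ± 0.22 for PGE2 and -0.27 ± 0.22 for CM in stimulated WT cells. None of the 3 tested relatives of Bend4 was called with PGE2 or CM.

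Epb41, which encodes protein 4.1R, rose with both treatments in both states of WT cells, where Epb41l2 differed by 0.26 ± 0.22 with PGE2 and 0.47 ± 0.19 with CM without stimulation, and by -0.67 ± 0.18 and 0.22 ± 0.17 after it. In stimulated WT cells Epb41 averaged 172 CPM with PGE2 and 145 CPM with CM, against 82.4 CPM without treatment (1.05 ± 0.14 and 0.81 ± 0.14, edgeR adjusted p = 3.63e-08 and 1.60e-05). Without stimulation it differed by 0.72 ± 0.16 with PGE2 and 0.44 ± 0.14 with CM, both called. Sptbn1, a spectrin that protein 4.1 binds, rose by 0.67 ± 0.17 with each treatment after stimulation.

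For the signalling members, Gna13, a G protein alpha subunit of another family, changed direction with the state: in WT cells it rose without stimulation, by 0.64 ± 0.17 with PGE2 and 0.72 ± 0.14 with CM, and fell after it, with differences of -0.63 ± 0.13 and -0.61 ± 0.13, each called by edgeR. Gnaq, a widely expressed relative of Gna15, was called only with CM in unstimulated WT cells, at a mean of 34.4 CPM against 17.3 CPM without treatment (0.98 ± 0.28). Beside Chn2, Arhgap45, another GTPase-activating protein, rose in stimulated WT cells by 0.82 ± 0.14 with PGE2 and 0.92 ± 0.14 with CM. Arhgap1 and Arhgap15 rose with PGE2 in stimulated WT cells by 0.58 ± 0.19 and 0.55 ± 0.17, and Vav1, which activates Rac, fell there (-0.54 ± 0.14).

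Among lipid and ubiquitin relatives, Plin2, which coats lipid droplets, rose in stimulated WT cells to 16.4 CPM with PGE2 and 14.6 CPM with CM, against 5.50 CPM without treatment (1.55 ± 0.41 and 1.39 ± 0.41, edgeR adjusted p = 0.00436 and 0.0128). Pnpla2, a triglyceride lipase, fell with PGE2 after stimulation (-0.55 ± 0.18), and Soat1, which esterifies cholesterol, rose with CM without stimulation by 0.85 ± 0.22. Ifih1, the RNA sensor MDA5, fell in stimulated WT cells to 11.7 CPM with PGE2 and 12.5 CPM with CM, against 31.4 CPM without treatment (-1.43 ± 0.31 and -1.34 ± 0.30), and Rnf138, a paralog of Rnf125, rose without stimulation by 0.68 ± 0.19 and 0.88 ± 0.16. Ube2d3, a ubiquitin-conjugating enzyme, fell with CM after stimulation (-0.26 ± 0.09). Of the Asb2 relatives only Asb1 was called in WT, lower with PGE2 after stimulation (-1.09 ± 0.32).

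The remaining calls in WT were Sertad3 (1.29 ± 0.40), Arid4a (0.46 ± 0.16) and Mpp1 (0.78 ± 0.24) with CM after stimulation, Ier2 with the same treatment (-0.65 ± 0.17), and Vav1 with CM unstimulated (-0.42 ± 0.14). In stimulated EP2KO cells Arhgap25 (0.58 ± 0.15 with PGE2, 0.48 ± 0.15 with CM) and, with CM, Pou6f1 (1.16 ± 0.39) and Cul5 (-0.37 ± 0.13) were called and were not called in WT. Epb41 and Arid5a were called in all 4 EP2KO comparisons too. Whether the EP2KO and WT effects of these relatives differed was not tested.

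**Figure D4:**
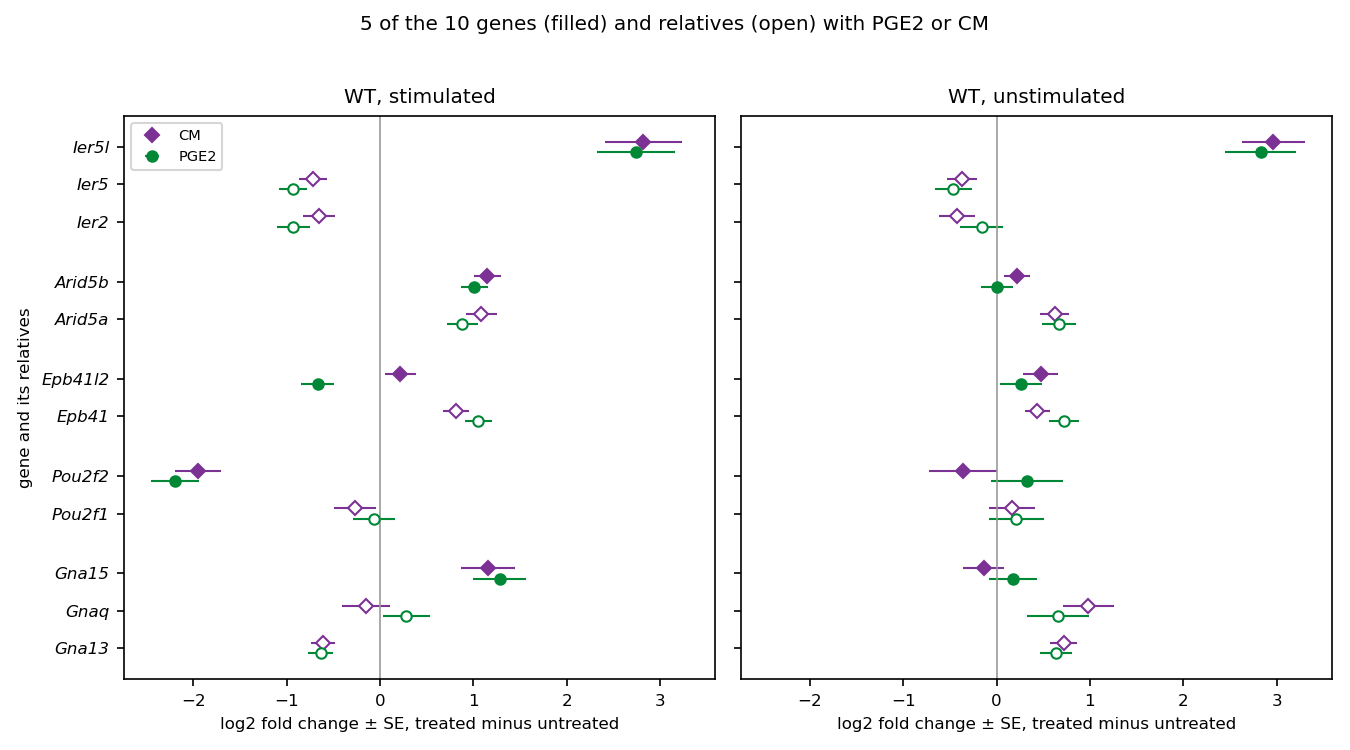
Log2 fold change ± SE with PGE2 (circles) or CM (diamonds) minus untreated in WT cells, for 5 of the 10 genes (filled) and 7 relatives (open). Ier5 and Ier2 lie left of 0 where Ier5l lies right of it, and Epb41 lies right of 0 where Epb41l2 is at -0.67 with PGE2 after stimulation.

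A list of textbook cAMP and CREB targets was set beside the 10 genes, and 27 of the 28 listed passed the filter. Some of the list were known to move from earlier results of these data. Anti-NK1.1 alone raised 12 and lowered 6 of the 27 in untreated WT cells (23.0% and 19.1% of all tested genes). In WT cells PGE2 raised 9 and lowered 0 without stimulation (1.91% and 1.05% of all genes) and raised 10 and lowered 5 after it (6.00% and 9.63%). CM raised 10 and lowered 0 without stimulation (4.55% and 3.68%) and raised 11 and lowered 3 after it (6.20% and 9.22%). In EP2KO cells 10 were called with each treatment without stimulation (3.15% of all genes with PGE2, 4.37% with CM). After stimulation 10 were called with PGE2 (7.29%) and 9 with CM (10.4%). In EP2/EP4KO cells 1 was called, with CM after stimulation (0.0746% of all genes), and 6 with the replicate block, which called 70 genes in all. Rgs2, a regulator of G protein signalling, averaged 492 CPM with PGE2 in unstimulated WT cells, against 137 CPM without treatment (1.85 ± 0.17, edgeR adjusted p = 4.23e-12). Crem, a cAMP-responsive transcription factor, rose by 2.23 ± 0.21, and Rgs1 by 1.62 ± 0.18, in the same comparison, and Pde4d, a cAMP phosphodiesterase, by 2.54 ± 0.23 with PGE2 after stimulation. Rgs2 and Crem were among the 3 targets of smallest p in each of the 4 WT comparisons, beside Rgs1 without stimulation and Pde4d after it. Of 15 tested genes for EP receptors, adenylyl cyclases, protein kinase A and CREB, none was called with either treatment in unstimulated WT cells. After stimulation 2 fell with PGE2 (9.63% of all genes were called lower there). With CM 1 rose and 2 fell (6.20% and 9.22% of all genes).

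Across the 18 group means of log2 CPM, Ier5l was most like Dgat1 of the other 9 genes (Pearson r = 0.94), and Rnf125 was like both Ier5l and Gna15 (r = 0.92 each). Bend4 and Asb2 ran opposite to each other (r = -0.90), as did Rnf125 and Pou2f2 (r = -0.95). Chn2 was closest to Asb2 (r = 0.83), and Epb41l2 to Pou2f2 (r = 0.64). These correlations are descriptions over 18 groups that share libraries' treatments, and the genes were chosen for responding to them.

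**Figure D5:**
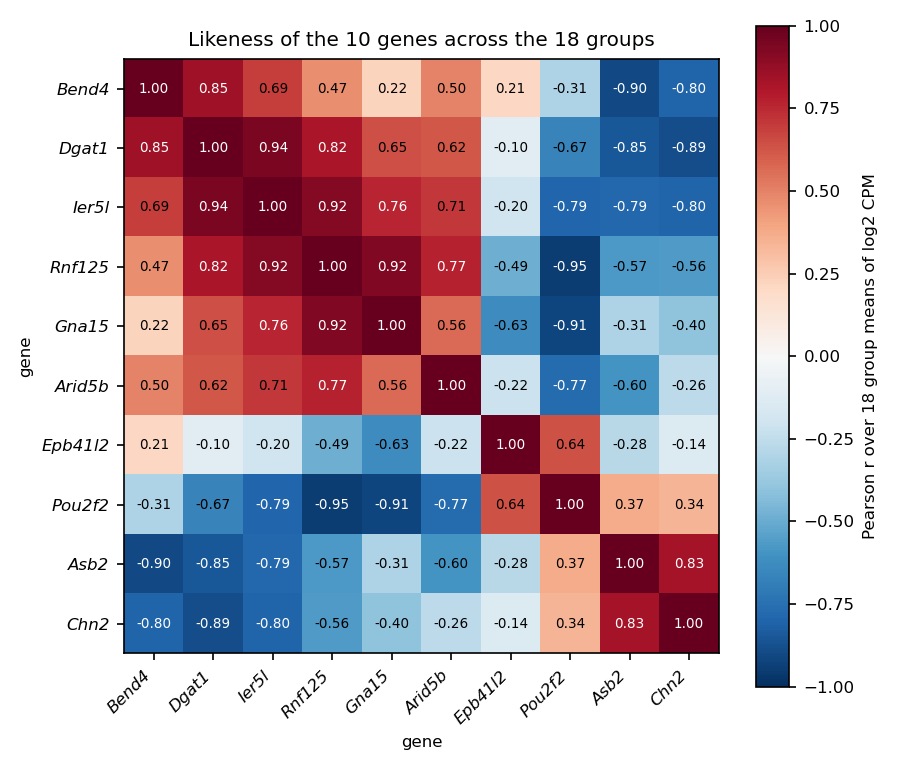
Pearson correlation of the 10 genes over the 18 group means of log2 CPM, from -1 (blue) to 1 (red). Bend4, Dgat1, Ier5l and Rnf125 form a positive block (0.47 to 0.94) that is negative with Asb2 and Chn2 (-0.90 to -0.56).

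Outside the 10, the tested genes whose group means ran closest to each were as follows, 3 for each gene and 2 for Ier5l. Bend4 was most like Stat3 (r = 0.98), Nudt4 (0.96) and Prkca (0.96), and Ier5l like P2ry10 (0.99) and Rgs2 (0.97). Dgat1 was most like Tmem123 (0.99), Trf (0.98) and Fth1 (0.98), and Rnf125 like Vps37b, Cytip and Tsc22d3 (0.99 each). The genes closest to Pou2f2 were Cflar (0.99), Pdgfa (0.98) and Tnf (0.98), and those closest to Gna15 were Fcgr3 (0.99), Rnf130 (0.98) and P2ry14 (0.97). For Arid5b they were Lrrk1 (0.93), Kansl1 (0.92) and Cyth4 (0.87), and for Epb41l2 Vps54 (0.89), Smad7 (0.89) and Rnf149 (0.88). Chn2 was most like Inpp4b, Itgax and Ptp4a3 (0.91 each), and Asb2 like Ltb (0.95), Ptprcap (0.94) and Cd244a (0.93). The points are 18 group means of 2 to 4 libraries each, and all share the same treatments and states.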

How the data were processed

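The authors deposited raw counts per gene symbol for 64 libraries; per the labels' protocols these came from 3' mRNA sequencing with barcodes and unique molecular identifiers, and per the submitters' processing notes GRCm38 (mm10) and DESeq2 were used. What is not given in the sources used here is the aligner, the annotation, the use of strand and whether a count is a molecule or a read. Counting error per level is large for the lowest genes, since 1 CPM is about 1 count. Groups came from the labels. The members and lists were chosen with earlier results of these data known.

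Counts were filtered with filterByExpr (minimum count 10), scaled by TMM and fitted with edgeR 4.0.16 (glmQLFit, robust; R 4.3.3, limma 3.58.1) over all 64 libraries with 18 group means. Adjustment followed Benjamini and Hochberg over 10723 genes, with calls at an adjusted p under 0.05. The rule for named genes took all 10 members, the 3 other tested genes with the highest Pearson correlation to each over the 18 group means (log2 CPM, prior count 2; predicted genes, clones and antigen receptor segments passed over), the relatives called in a comparison, the 3 called cAMP targets of smallest p per WT comparison, and Ptger2 and Ptger4; a few items that this rule or the marker lists hold are not reported here. Lists of NK, T cell, B cell, macrophage and dendritic cell, neutrophil and erythroid markers were summed per library. Intervals are 95% and cover the fitted spread. The fit was also run on simulated counts drawn independently for each library, and no result here relies on that run. It held no replicate effect, so it could not check the fit where same-numbered libraries deviate together. Alternatives were DESeq2 1.42.0 (its test and its size factors), no filter, a replicate block, only the groups compared, library totals alone and each library left out.

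Same-numbered libraries deviated together (every correlation of their deviations over 0.1, with 3 or more pairs) for PGE2 in stimulated WT (0.223 to 0.366), PGE2 in unstimulated EP2KO (0.101 to 0.336), and in EP2/EP4KO for anti-NK1.1 (0.166 to 0.22), PGE2 unstimulated (0.161 to 0.326), PGE2 stimulated (0.211 to 0.373) and CM stimulated (0.157 to 0.378); this pairing comes from the data and the shared numbers in the labels.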

Additional observations from a re-analysis of the deposited data

Results flagged for a closer look

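In groups of 4 libraries, 7 of 110 gene and group combinations held 1 library whose gap to the nearest other, divided by the group's range, exceeded Dixon's critical value; chance flags about 1 in 20. Bend4 stood at 140 CPM in replicate 1 of stimulated WT cells with PGE2, where the other libraries ran from 72.1 to 74.0 CPM. Ier5l stood at 35.6 CPM in replicate 3 of stimulated EP2KO cells with PGE2, beside 16.6 to 19.8 CPM in the others. Dgat1 stood at 17.2 CPM in replicate 2 of unstimulated untreated EP2KO cells, beside 25.7 to 27.0 CPM. Rnf125 stood at 95.6 CPM in replicate 3 of stimulated EP2KO cells with CM, beside 59.2 to 59.7 CPM. Arid5b and Epb41l2 were both high in replicate 2 of stimulated WT cells with PGE2, Arid5b at 174 CPM beside 134 to 140 CPM and Epb41l2 at 78.9 CPM beside 55.5 to 58.0 CPM. Chn2 stood at 26.0 CPM in replicate 3 of stimulated untreated EP2KO cells, beside 49.7 to 53.2 CPM.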

How the results depend on the processing

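No called value of the 10 genes changed direction under any alternative run. For relatives and cAMP targets only the number called was followed, not the direction. The count of relatives called with PGE2 in unstimulated WT cells was 4, and became 1 without the filter and 8 with the replicate block; leaving out 1 library gave 1 to 4 (1 without PGE2 replicate 2, and 2 without PGE2 replicate 4 or untreated replicate 1, 2 or 4). The count with CM in unstimulated WT cells was 10, and became 16 with the replicate block; leaving out 1 library gave 4 to 10 (4 without CM replicate 2 or 3 or untreated replicate 4, and 5 without untreated replicate 1). The cause was not tested, beyond the fewer libraries. Of 90 tested values of the 10 genes, calls were lost in 3 without the filter (Ier5l in WT and EP2/EP4KO, Chn2 in EP2KO), gained in 3 with the replicate block, in 2 with only the groups compared, and in 1 each with DESeq2's test and its size factors; these gains were Dgat1 and Ier5l in EP2KO and, with the block, Chn2 in EP2/EP4KO. With a library left out, 13 calls were lost and 4 gained over 820 values of the tested effects, all in Ier5l, Chn2, Dgat1 and Asb2. Of 860 untested treatment differences with a library left out, 6 moved by more than the SD between libraries. Pou2f2 with PGE2 in unstimulated WT cells changed sign, to -0.06 without PGE2 replicate 2, against 0.33, and without PGE2 replicate 4 Rnf125 became 0.86 and Asb2 -2.80 there. Bend4 with CM in unstimulated EP2/EP4KO cells became 0.36 without CM replicate 2, and Dgat1 in stimulated EP2/EP4KO cells 0.71 with PGE2 and 0.92 with CM without untreated replicate 2. Same-numbered libraries did not all deviate together in the other comparisons with 3 or more pairs (for example -0.119 to 0.323 for anti-NK1.1 in WT), and PGE2 in unstimulated WT had only 2 pairs (0.251 and 0.293). Their mean correlation was still positive in each, such as 0.112 for anti-NK1.1 in WT and 0.264 for CM in stimulated WT. The means for libraries of different number were -0.0371 and -0.0877 there. With the block 679 genes were called, against 318, for PGE2 in unstimulated WT and 1755, against 883, for CM there, and DESeq2 called 25 genes, against 8 in edgeR, for CM in stimulated EP2/EP4KO cells. For PGE2 in stimulated WT, where same-numbered libraries deviated together, the block called 19 relatives, against 14, and 18 cAMP targets, against 15. With the replicate number as a block within each genotype, untreated levels between genotypes could not be fitted. Bend4 in untreated WT libraries (2 to 11 counts) and Ier5l in stimulated untreated WT libraries (2 to 14 counts) rest on few counts.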
